A study of Mus musculus with 6 samples.

Results

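The cytosolic ribosomal protein genes of mouse were examined by RNA-seq in mucosa of the middle small intestine from alk-SMase KO and WT mice. Members were the protein-coding genes of GENCODE M21 whose symbols follow the ribosomal protein names (Rpl, Rplp or Rps with a number). Of 83 such genes, 80 were listed in the deposited table, 49 of the large subunit and 31 of the small subunit, among 11052 genes that could be given their row of values. Rpl3l, Rpl10l and Rpl39l were not analysed here. Alk-SMase, encoded by Enpp7, is an intestinal enzyme that hydrolyses sphingomyelin to ceramide. The KO libraries K79S, K82S and K86S came from 3 mice, and the WT libraries W83S, W89S and W90S from 3 others, with mucosal RNA of 1 mouse in each. Where 3 values follow each other below, they are in this order. The study names C57BL/6 mice where it locates the gene, and does not state the strain of the KO and WT animals separately. In the KO mice exon 2 of the alk-SMase gene had been removed by Cre-loxP recombination, which shifts the reading frame, and the promoter that drove Cre is not given in the sources used here. The age and sex of the mice are not given in the sources used here.

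Gene identifiers in the deposited table stand beside the values of other genes, so each member was put back on its row from its rank in W83S. The rows of the members were thus chosen by W83S values, which are given only as a description, as are fits that include W83S. The comparison of KO with WT used the 3 KO libraries against W89S and W90S. The number of decimals gave a check of the rows, because genes with a single annotated transcript carry at most 6 decimals. This held for 99.8% of 3178 single-transcript genes and for 7.16% of 7874 others. Among the members it held for 3 of 3 and for 6 of 77.

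Ribosomal proteins form, with ribosomal RNA, the small subunit that reads the mRNA and the large subunit that joins amino acids. Cells make them in matched amounts, and proteins left without a partner are degraded. Their mRNAs are short, abundant and typically begin with a C and a run of pyrimidines, the terminal oligopyrimidine (TOP) motif, through which mTOR signalling controls their translation. In the small intestine, dividing crypt cells make many new ribosomes, while villus enterocytes are differentiated and no longer divide.

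The starts of 6 members are shown because they carry the sequence feature the family is known for: Rpl15 and Rpl35 have long runs, and the other 4 recur in the results. Each window holds 15 bases before the annotated start and 15 from it, 5′ to 3′ on the strand of the gene, from RefSeq on GRCm38.p6, and capitals mark the pyrimidine run from the first transcribed base. Rps6 lies at chr4:86857353-86857382 (minus strand), Rpl15 at chr14:18270972-18271001 (minus), Rpl35 at chr2:39005117-39005146 (minus), Rps18 at chr17:33955651-33955680 (minus), Rps15a at chr7:118116133-118116162 (minus) and Rpl28 at chr7:4792950-4792979 (plus).
Rps6: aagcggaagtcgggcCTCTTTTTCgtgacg
Rpl15: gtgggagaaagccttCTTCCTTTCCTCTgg
Rpl35: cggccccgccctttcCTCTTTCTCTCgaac
Rps18: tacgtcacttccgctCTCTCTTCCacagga
Rps15a: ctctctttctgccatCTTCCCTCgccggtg
Rpl28: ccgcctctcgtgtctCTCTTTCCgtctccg
The run was 13 bases long in Rpl15 and 11 in Rpl35, 9 in Rps6 and Rps18, and 8 in Rps15a and Rpl28.

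A promoter was found for 60 of the 80 members, as 250 bases before to 50 after each annotated start. A start with C followed by 4 pyrimidines was held by 13 of the 60 (21.7%), against 3.01% of 27025 genes and 2.66% of 6692 other protein-coding genes with a row. A gene counted when any of its listed starts held the motif, and a start annotated a few bases away from the true start would be missed. The ETS-type motif CCGGAA or TTCCGG was in 33 member promoters (55.0%), against 16.7% of all genes and 33.6% of the other coding genes with a row. The YY1-type motif AAGATGG or CCATCTT was in 10 (16.7%), against 7.28% of all genes and 9.07% of the other coding genes with a row. The SP1-type motif GGGCGG or CCGCCC was in 38 (63.3%), above the 38.2% of all genes but below the 70.0% of the other coding genes with a row. TATAAA was in 6 (10%), against 9.77% of all genes and 6.05% of the other coding genes with a row. The E box CACGTG was also in 6, above the 8.09% of all genes and below the 12.2% of the other coding genes with a row. The ETS, YY1 and SP1 motifs were searched on both strands, and TATAAA on the strand of the gene only. The E box reads the same on both strands. Overlaps between motifs were kept.

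Some facts of the libraries touch every value below. Summed FPKM ranged from 393152 (K79S) to 495362 (W89S), and the deposited values hold no read counts. In the read totals stated by the study, K86S and K79S were the libraries with the fewest mapped reads, and the part of depth in the results was not tested. W83S stood apart: its gastric epithelial markers summed to 41019 FPKM and its pancreatic acinar markers to 2331, against at most 5.72 and 2.02 in any other library. K82S was the lowest library for proximal small intestinal markers (222 FPKM, others 709 to 1200) and the highest for distal ones (1600, others 289 to 853). The proximal list holds Enpp7 itself, so its values are part of the proximal sums. Enpp7 was at 605 (K79S), 129 (K82S) and 669.7 (K86S) FPKM in KO mice and at 406 (W83S), 667 (W89S) and 495 (W90S) in WT mice. A value over all exons cannot reveal that exon 2 is missing, so this checks no label. Enterocyte markers summed to between 24708 and 40558 FPKM, so the labelled tissue was present in every library.

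Ribosomal protein mRNAs were abundant in all 6 mice. The mean FPKM of a member, which is per transcript length, had a median of 64.8 (interquartile range 39.2 to 119), and the median member stood at the 95.7th percentile of all rows. The mean was over 100 FPKM for 26 members and under 20 for 7. Rplp1, a stalk protein that helps recruit elongation factors to the ribosome, was the highest member with a mean of 1013 FPKM, 12.0% of the members' sum. Rpl21, a large subunit protein, was the lowest at 4.01. Rplp1 has 1 annotated transcript and Rpl21 has 6. How the values of several transcripts became a gene value was not examined, which limits comparisons of level between members, here and below.

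Summed over the 80 members, FPKM was 4949 in K79S, 9722 in K82S and 4836 in K86S, and 8822 in W83S, 11965 in W89S and 10577 in W90S. The members took 1.26%, 2.09% and 1.15% of all FPKM in the KO libraries and 1.82%, 2.42% and 2.23% in the WT libraries, in the same order. All 3 KO libraries lay below W89S and W90S, with K79S and K86S the lowest and K82S closer to the WT mice. K82S lay above W83S, the library that placed the rows. The order was the same for the median member, which was at 38.7, 69.7 and 37.9 FPKM in KO mice and at 68.3, 88.8 and 85.6 in WT mice. In these bulk libraries, fewer cells of a type that is rich in ribosomal protein mRNA and less such mRNA per cell cannot be told apart.

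**Figure D1:**
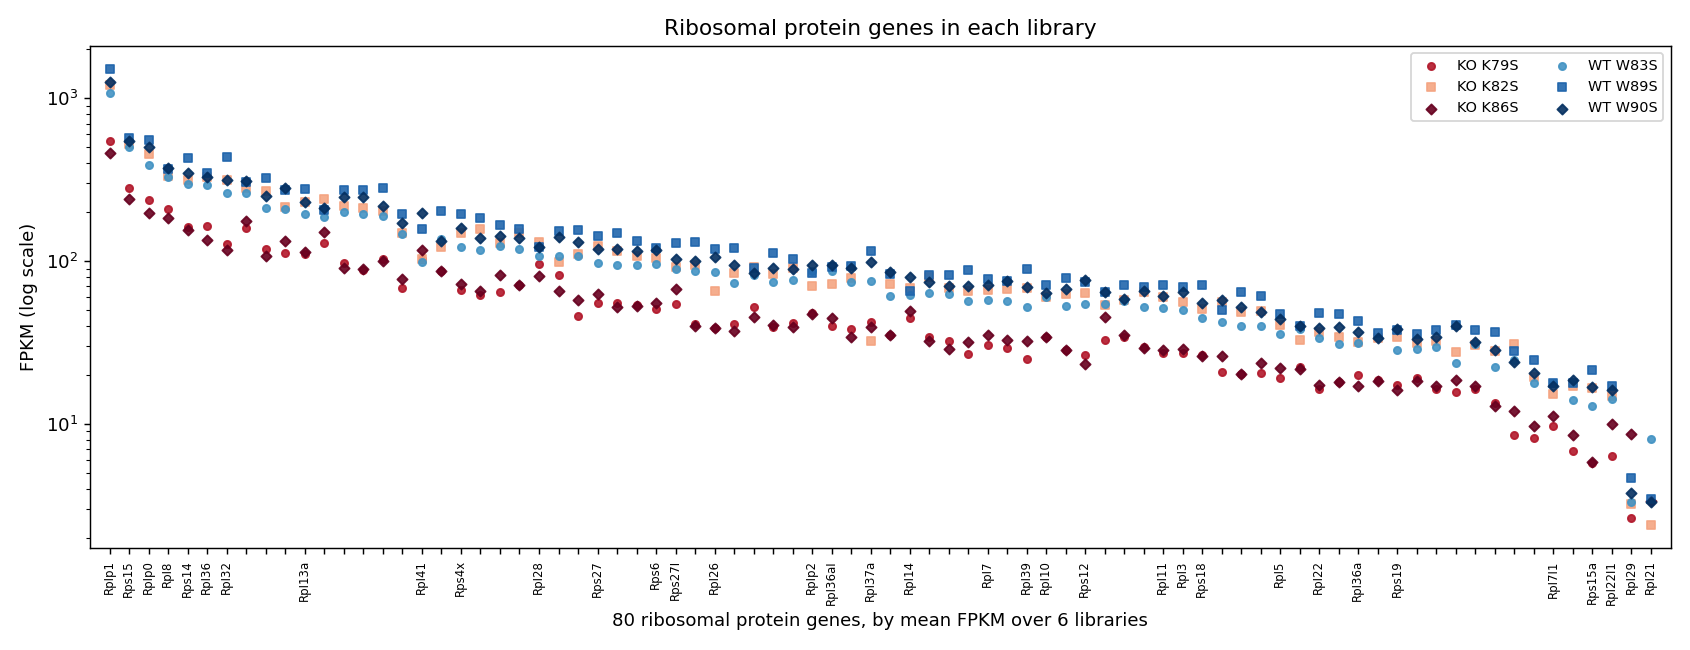
FPKM (log axis) of the 80 ribosomal protein genes in each library, ordered along the x axis by mean FPKM, with 1 point per gene and library and the genes described here labelled. K79S and K86S lie at the bottom for most genes from Rplp1 (mean 1013) down to the lowest members, where Rpl21 and Rpl29 leave the pattern.

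The members moved together from library to library. Each member's log2(FPKM + 1) was set against its own mean over the 6 libraries, and the median over members was −0.71 in K79S, 0.30 in K82S, −0.67 in K86S, 0.13 in W83S, 0.57 in W89S and 0.39 in W90S. Of the 80 members, 75 stayed within 0.5 of this profile in every library, against 16.4% of 10839 other genes with a row. The profile was made from the members themselves, so this is a description. The 5 that left it by more than 0.5 in some library were Rpl29, Rpl37a, Rpl21, Rpl41 and Rpl28, all of the large subunit.

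Taken mouse by mouse, K79S and K86S resembled each other and K82S did not resemble them. Relative to the mean of W89S and W90S, the median member was at 0.418-fold in K79S (10th to 90th percentile 0.348 to 0.562) and at 0.429-fold in K86S (0.347 to 0.606), while the median of all rows was at 0.899 and 0.878. In K82S the median member was at 0.862-fold (0.771 to 0.973), with all rows at 0.979. K79S lay below both W89S and W90S for 79 members and K86S for 78, where the shares over all rows were 48.4% and 51.6%. K82S lay below both for 64 members (37.9% of all rows), but above W83S for 67. The lowest of the 6 libraries was K79S for 41 members (26.4% of all rows) and K86S for 36 (24.6%). W83S was lowest for 1 member (15.2%) and K82S for 2 (13.1%). The highest was W89S for 60 (17.7%) and W90S for 13 (20.2%).

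KO was then compared with WT by limma on log2(FPKM + 1), with a gene called when its adjusted p was under 0.05 and its fold change above 1.5 or below 2/3. None of the 80 members was called, and neither was any of the 13089 rows tested, so the background was 0%. The adjusted p-values of the members ran from 0.546 to 0.993. At an unadjusted p under 0.05 there were 30 members, all with lower means in KO, against 1126 rows in all (8.6%; 6.86% counting those lower in KO). The estimate was below 0 for 79 of 80 members, where 60% of all rows were, and the fold change was below 2/3 for 72, where 11.5% of all rows were. The median log2 fold change of the members was −0.85 (interquartile range −0.95 to −0.72), a fold change of 0.554, against −0.07 over all rows. All 3 KO libraries lay below W89S and W90S for 62 members (20.7% of all rows), and below all 3 WT libraries for 10 (11.3%). The count of 10 lies near the share of all rows. It uses W83S, which placed the rows, so a lack of overlap with all 3 WT libraries is only a description, here and below. For a single gene an exact permutation test of 3 against 2 cannot give a two-sided p below 0.2.

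The call turned on K82S and on the scale of the FPKM. Without K82S and with FPKM as deposited, 62 of 80 members were called and all 62 were lower in KO, with 1023 of all rows called (7.82%; 7.56% counting those lower). The median log2 fold change of the members was then −1.19, against −0.11 over all rows, and the smallest adjusted p was 0.0365. By subunit, 37 of 49 large and 25 of 31 small subunit genes were called. This fit had 2 libraries in each group. When its libraries were scaled to the same FPKM total, none of the members was called (0.023% of all rows, lower or in either direction), and none after median ratio scaling (0.0154%, likewise). The smallest adjusted p of a member was then 0.0778 and 0.0629, and the median −0.95 and −1.04 against 0.09 and 0.02 over all rows. An unadjusted p under 0.05 was found for 73 and 74 of the 80 members, all lower. Over all rows it was found for 2856 of 13057 and 2858 of 13023, in either direction. Calls without K82S that are given below for single genes and lists hold for FPKM as deposited. As a description, since W83S placed the rows, with all 6 libraries none of the members was called (0.00764% of all rows, lower or in either direction). With W83S added and K82S left out, 68 members were called, all lower in KO (8.82% of all rows, 8.43% lower).

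**Figure D2:**
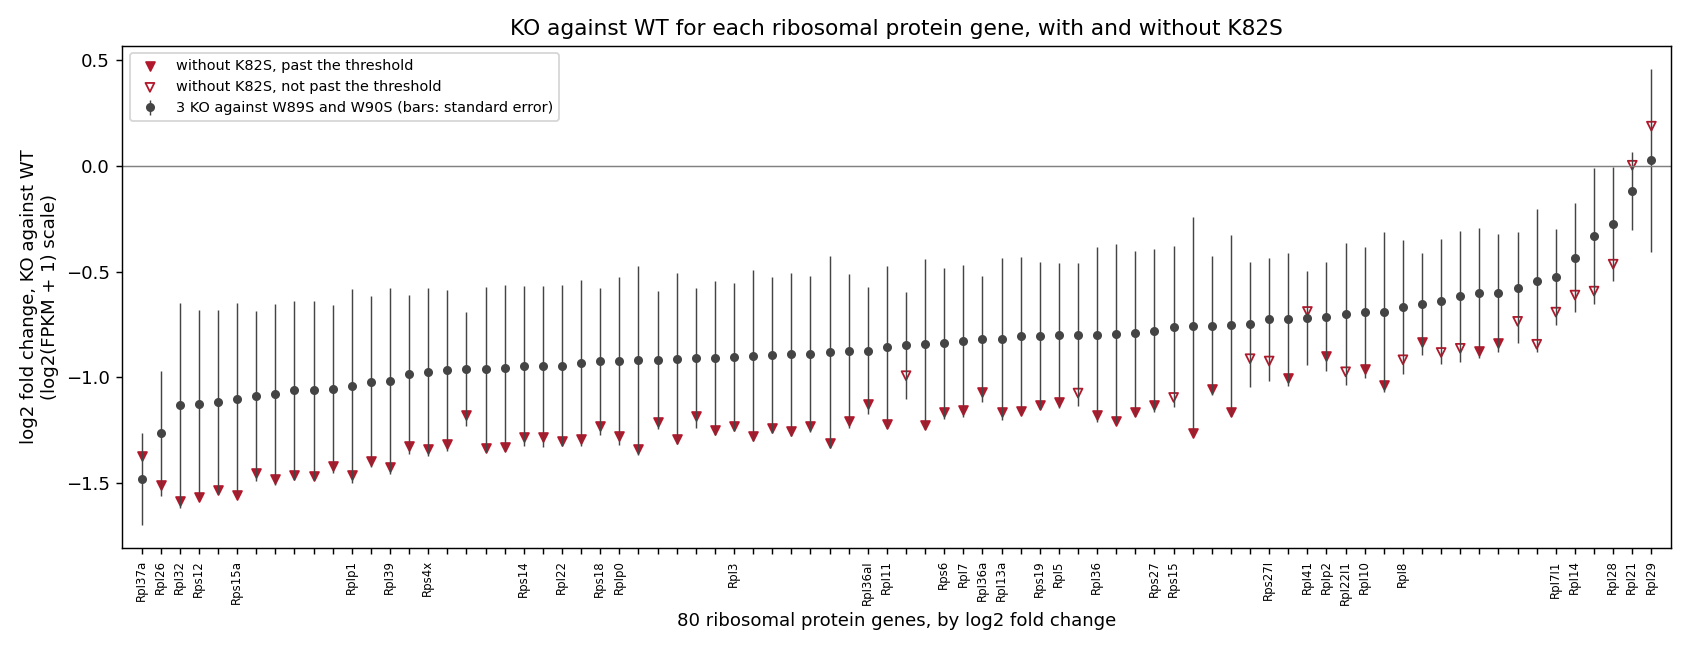
Log2 fold change of KO over WT (log2(FPKM + 1), limma) for each of the 80 ribosomal protein genes, with its standard error, for the fit of the 3 KO libraries against W89S and W90S, beside the fit without K82S (triangles, filled where called). The median is −0.85 with K82S, where no gene was called, and −1.19 without it, where 62 were on the FPKM as deposited and none after rescaling.

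The subunits did not stand far apart. The median log2 fold change was −0.83 for the large subunit, with 48 of 49 below 0, and −0.88 for the small subunit, with 31 of 31 below 0. Their median levels were 57.6 and 89.5 FPKM. The difference between the subunits was not tested.

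The stalk of the large subunit is built of Rplp0, which anchors it to the ribosomal RNA, and of Rplp1 and Rplp2, which bind to Rplp0. Rplp1 (chr9:61913284-61914542, minus strand, mm10) was at 550.1, 1206 and 459.7 FPKM in KO and at 1078, 1519 and 1267 in WT. Its KO mean was 739 ± 407 (SD, n = 3), and K82S lay within the WT range. The log2 fold change was −1.04 (SE 0.46, adjusted p = 0.546). Rplp0 (chr5:115559467-115563727, plus) was at 238, 456 and 199 FPKM in KO and at 387, 554 and 505 in WT, with K82S again above W83S. Its log2 fold change was −0.92 (SE 0.40). Rplp2 (chr7:141447370-141451585, plus) was at 48.0, 70.8 and 47.5 FPKM in KO and at 87.6, 85.0 and 95.1 in WT, so the groups did not overlap (11.3% of all rows), and its log2 fold change was −0.71 (SE 0.26). Without K82S all 3 stalk genes were called, at log2 fold changes of −1.46 (Rplp1), −1.28 (Rplp0) and −0.90 (Rplp2).

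In the next most abundant members K79S and K86S were again the lowest libraries. Rps15, a small subunit protein, was at 283, 525 and 240.2 FPKM in KO and at 503, 571 and 545 in WT. Rpl8, a core protein of the large subunit, was at 209, 331 and 184 in KO and at 329.8, 369 and 374 in WT. Rps14, in the platform of the small subunit, was at 163, 317 and 154 in KO and at 297, 427 and 350.3 in WT. In all 3 genes K82S lay above W83S and below W89S and W90S. Rpl36 was at 165, 330.3 and 136 FPKM in KO and at 293, 349 and 330.4 in WT, so that K82S matched W90S. The log2 fold changes were −0.76 (Rps15), −0.67 (Rpl8), −0.95 (Rps14) and −0.80 (Rpl36), and without K82S Rps14 and Rpl36 were called while Rps15 (adjusted p = 0.0506) and Rpl8 (adjusted p = 0.0624) were not.

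Several members are known for roles beyond the ribosome. Rpl11 and Rpl5, which bind Mdm2 and so link ribosome assembly to p53, were at 27.2, 60.2 and 28.4 FPKM (Rpl11) and at 19.1, 40.5 and 22.0 (Rpl5) in KO. In WT they were at 51.2, 71.5 and 61.1 (Rpl11) and at 35.6, 47.4 and 43.9 (Rpl5). Rps6 (chr4:86854660-86857412, minus), the substrate of S6 kinase and a gene with the pyrimidine start shown above, was at 50.7, 105 and 55.0 FPKM in KO and at 96.7, 121 and 118 in WT. In each of these genes K79S and K86S were the 2 lowest libraries and K82S lay between W83S and the other WT mice. Rps19, mutated in Diamond-Blackfan anaemia, was at 17.5, 34.1 and 16.1 in KO and at 28.4, 37.7 and 38.2 in WT. Log2 fold changes were −0.86 (Rpl11), −0.80 (Rpl5), −0.84 (Rps6) and −0.80 (Rps19), and all 4 genes were called without K82S, each at an adjusted p of 0.0365.

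Rpl13a and Rps18 are widely used as reference genes in qPCR, so their spread between mice is of practical interest. Rpl13a was at 110.4, 231 and 114 FPKM in KO and at 196, 278 and 230.0 in WT. Rps18 was at 26.5, 50.5 and 26.1 in KO and at 45.0, 71.5 and 55.6 in WT. Both were lowest in K79S and K86S and highest in W89S. Log2 fold changes were −0.82 (SE 0.39) for Rpl13a and −0.92 (SE 0.35) for Rps18, and both were called without K82S.

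The 4 members with the most negative log2 fold changes were Rpl37a, Rpl26, Rps12 and Rpl32. Rpl37a (chr1:72711290-72713813, plus), a zinc finger protein of the large subunit, was at 42.1, 32.4 and 39.5 FPKM in KO and at 75.9, 115 and 99.5 in WT. Here K82S was the lowest of all libraries, which held for 2 members (Rpl37a and Rpl21). The groups did not overlap (11.3% of all rows). Its log2 fold change of −1.48 (SE 0.22, adjusted p = 0.546) had the smallest SE of the 4 and was −1.37 without K82S. Rpl26 was at 39.0, 65.2 and 38.9 FPKM in KO and at 85.9, 119 and 107 in WT, also without overlap (11.3% of all rows). Its log2 fold change was −1.27. Rps12 was at 26.4, 63.3 and 23.3 in KO and at 54.5, 74.2 and 76.5 in WT (−1.13). Rpl32 was at 128, 317 and 118 in KO and at 262, 439 and 313 in WT (−1.13). For Rps12 and Rpl32 K82S lay inside the WT range. Rps15a, among the 4 lowest members by mean level and with the pyrimidine start shown above, was at 5.79, 16.6 and 5.83 FPKM in KO and at 12.9, 21.6 and 16.8 in WT (−1.10).

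The log2 fold changes closest to 0 belonged to members that left the common profile or had a narrow range. Rpl29, of the large subunit, was at 2.63, 3.23 and 8.67 FPKM in KO and at 3.31, 4.66 and 3.77 in WT, and was the 1 member highest in K86S (12.5% of all rows). Its log2 fold change of 0.03 (SE 0.43) turned to −0.41 without K86S. Rpl21 was at 3.38, 2.41 and 3.39 FPKM in KO and at 8.12, 3.45 and 3.30 in WT, so that the high value was in W83S, the library that placed it. Its log2 fold change was −0.12 (SE 0.18), and 0.027 with each library scaled to the same FPKM total. Rpl28, with the pyrimidine start shown above, was at 96.5, 132 and 80.6 in KO and at 107, 122 and 122 in WT (−0.27, SE 0.27). Rpl28 was highest in K82S, as were 4 members in all (22.1% of all rows). Rpl14 was at 45.1, 68.4 and 49.2 in KO and at 62.2, 65.9 and 79.6 in WT, a narrow range in which K82S lay above 2 WT mice. Rpl41, which encodes a very short peptide and was singled out after its values were seen, was at 103, 103 and 117 in KO and at 98.7, 158 and 199 in WT, and was the 1 member lowest in W83S.

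There were 4 pairs of related genes, in which the second copy is a variant of a core ribosomal protein. The first 60 coding bases of the 2 most alike pairs are shown because they let 50-base reads tell the copies apart. They are from GENCODE M21 transcripts, and capitals mark the bases that differ from the partner, 11 of 60 in Rpl36a and Rpl36al and 18 of 60 in Rps27 and Rps27l.
Rpl36a: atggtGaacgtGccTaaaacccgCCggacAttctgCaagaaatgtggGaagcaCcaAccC
Rpl36al: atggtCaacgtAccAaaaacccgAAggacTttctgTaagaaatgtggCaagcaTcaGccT
Rps27: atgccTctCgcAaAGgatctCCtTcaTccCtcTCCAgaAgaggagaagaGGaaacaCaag
Rps27l: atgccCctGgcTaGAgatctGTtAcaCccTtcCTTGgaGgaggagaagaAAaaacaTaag
Over the whole coding sequence, identity was 87.7% for Rpl36a and Rpl36al, 76.2% for Rps27 and Rps27l, 66.9% for Rpl22 and Rpl22l1, and 51.7% for Rpl7 and Rpl7l1. The longest identical run was 24, 11, 26 and 10 bases, and no pair shared a coding window of 50 bases.

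Both copies had lower means in KO in all 4 pairs. Rpl36a (chrX:134585654-134588062) was at 20.01, 31.8 and 17.05 FPKM in KO and at 31.3, 43.0 and 37.0 in WT, and Rpl36al (chr12:69182731-69184083) at 40.3, 72.3 and 44.6 in KO and at 87.5, 91.9 and 95.3 in WT. The copy Rpl36al had the higher FPKM in every library, and it did not overlap between KO and WT (11.3% of all rows). Rpl36a has 6 annotated transcripts and Rpl36al has 3, so the limit on levels given above holds for this pair. Rps27 (chr3:90212522-90213651), a zinc finger protein of the small subunit, was at 55.7, 124 and 62.8 in KO and at 96.8, 143 and 119 in WT, and Rps27l (chr9:66946086-66949516), a p53-induced copy, at 54.2, 92.0 and 67.7 in KO and at 90.1, 129.8 and 103 in WT. The log2 fold changes were −0.82 (Rpl36a), −0.87 (Rpl36al), −0.78 (Rps27) and −0.72 (Rps27l).

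Rpl22 was at 16.5, 36.7 and 17.5 FPKM in KO and at 33.9, 47.9 and 39.0 in WT, and its copy Rpl22l1 at 6.32, 14.9 and 10.04 in KO and at 14.3, 17.2 and 16.1 in WT. Rpl7 was at 30.6, 66.3 and 35.3 in KO and at 57.9, 77.8 and 71.4 in WT, and Rpl7l1 at 9.73, 15.2 and 11.2 in KO and at 17.9, 17.9 and 17.1 in WT. Log2 fold changes were −0.94 (Rpl22), −0.70 (Rpl22l1), −0.83 (Rpl7) and −0.52 (Rpl7l1). Without K82S the core genes Rpl22, Rpl7, Rpl36a and Rps27 were called, as was Rpl36al, while Rpl22l1 (adjusted p = 0.0876), Rpl7l1 (adjusted p = 0.0674) and Rps27l (adjusted p = 0.0803) were not. The difference between copies was not tested. Of the remaining genes with a listed partner, Rpl3, in the peptidyl transferase centre, had a log2 fold change of −0.90, Rpl10 of −0.69, Rpl39 of −1.02 and Rps4x of −0.98.

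Ribosomal protein genes have many processed pseudogenes, and 59 of the 80 members had at least 1 that carries their symbol. Of 291 such pseudogenes in the annotation, 175 were given a row, and all 175 were tested. Their summed FPKM was 3729, 7536 and 3681 in KO and 6759, 8973 and 8003 in WT, the same order of libraries as their parents. Their median log2 fold change was −0.80, with 173 below 0 (60% of all rows) and none called. Without K82S it was −1.12, with 142 called in either direction (7.82% of all rows). How the authors' mapping placed reads that match several genes is not given in the sources used here, and the part of shared reads in these values was not tested.

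Sequence shared between genes was measured in the annotated transcripts. A median of 57.1% of the 50-base windows of a member were also found in another annotated gene, up to 98.6% in Rps27, against a median of 0.667% in 37 proteasome subunit genes. The 46 members with over 50% of windows shared had a median log2 fold change of −0.83, and the 34 others of −0.88. Members with no pseudogene of their name (21) had −0.87.

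Other genes of the ribosome and its assembly were read from lists. None of their genes was called in KO against WT. Over all rows, 60% were below 0, and 7.56% were called lower without K82S. These shares are the background for the counts of each list below. Among ribosomal proteins whose symbols differ from those of the members, Rpsa had a log2 fold change of −1.12 and Rack1 of −0.90, and both were called lower without K82S. Fau, a ubiquitin-like fusion of Rps30, was at 599, 897 and 531 FPKM in KO and at 716, 880 and 819 in WT, and K82S was its highest library. Its log2 fold change was −0.37, and it was not called without K82S (adjusted p = 0.209).

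Ribosome assembly genes (24 tested, for snoRNP, rRNA transcription and processing factors) had a median of −0.55, with 23 below 0 and 8 called lower without K82S. Rrp1 was at 23.6, 27.5 and 19.6 FPKM in KO and at 29.0, 29.2 and 30.1 in WT. Nhp2, a core protein of H/ACA snoRNPs, was at 7.67, 21.2 and 8.68 in KO and at 22.4, 28.4 and 29.9 in WT, without overlap (11.3% of all rows). Its log2 fold change of −1.29 became −1.72 without K82S, where it was called. Small nucleolar RNA host genes (8) had a median of −0.57, all below 0 and none called, with Snhg8 at −0.95 and Epb41l4aos at −0.37.

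Elongation factors and related genes (11, with Tpt1 and Pabpc1 among them) had a median of −0.47, and all 11 were below 0. Eef2, which moves the ribosome along the mRNA, was at 593, 513 and 528 FPKM in KO and at 554, 690 and 641 in WT, so K82S was its lowest library, and its log2 fold change was −0.29. Eef1a1, which delivers tRNAs, was at 390, 604 and 392 in KO and at 535, 596 and 624 in WT (−0.43). Without K82S, 1 of the 11 was called lower (7.56% of all rows). Initiation factors (26) had a median of −0.32, with 23 below 0 and 2 called lower without K82S, and their most abundant genes Eif6 (−0.05) and Eif1 (−0.17) lay close to 0. Genes of growth control (15, such as Mtor, Rptor, Tsc2, the S6 kinases and Myc) had a median of −0.07, with 9 below 0 and none called without K82S. Mxd1, a Max partner that opposes Myc, was at 173, 155 and 162 in KO and at 106, 135 and 102 in WT (0.47), and Max was at 76.4, 76.5 and 76.0 in KO and at 38.2, 65.9 and 55.1 in WT (0.34).

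Housekeeping complexes outside the cytosolic ribosome were set beside the members. Of all rows, 60% were below 0 and 7.56% were called lower without K82S. Mitochondrial ribosomal proteins (77), which serve the ribosome inside mitochondria, had a median of −0.41, with 75 below 0 and 7 called lower without K82S. Mrps21 (−0.45) and Mrpl12 (−0.77) were the most abundant. Oxidative phosphorylation subunits (74) had a median of −0.50, with all 74 below 0 and 5 called lower without K82S, and Cox6a1 (−0.47) and Cox8a (−0.51) were the most abundant. Proteasome subunits (37) had a median of −0.23, with 31 below 0 and 1 called lower without K82S, and Psmb10 (0.00) and Psmb1 (−0.51) were the most abundant. The libraries were not ordered alike in these groups. The median deviation of K82S was 0.30 in the cytosolic ribosomal proteins and 0.22 in the proteasome, but 0.02 in the mitochondrial ribosomal proteins and −0.13 in oxidative phosphorylation. The differences between lists were not tested, and no list was tested as a set.

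**Figure D3:**
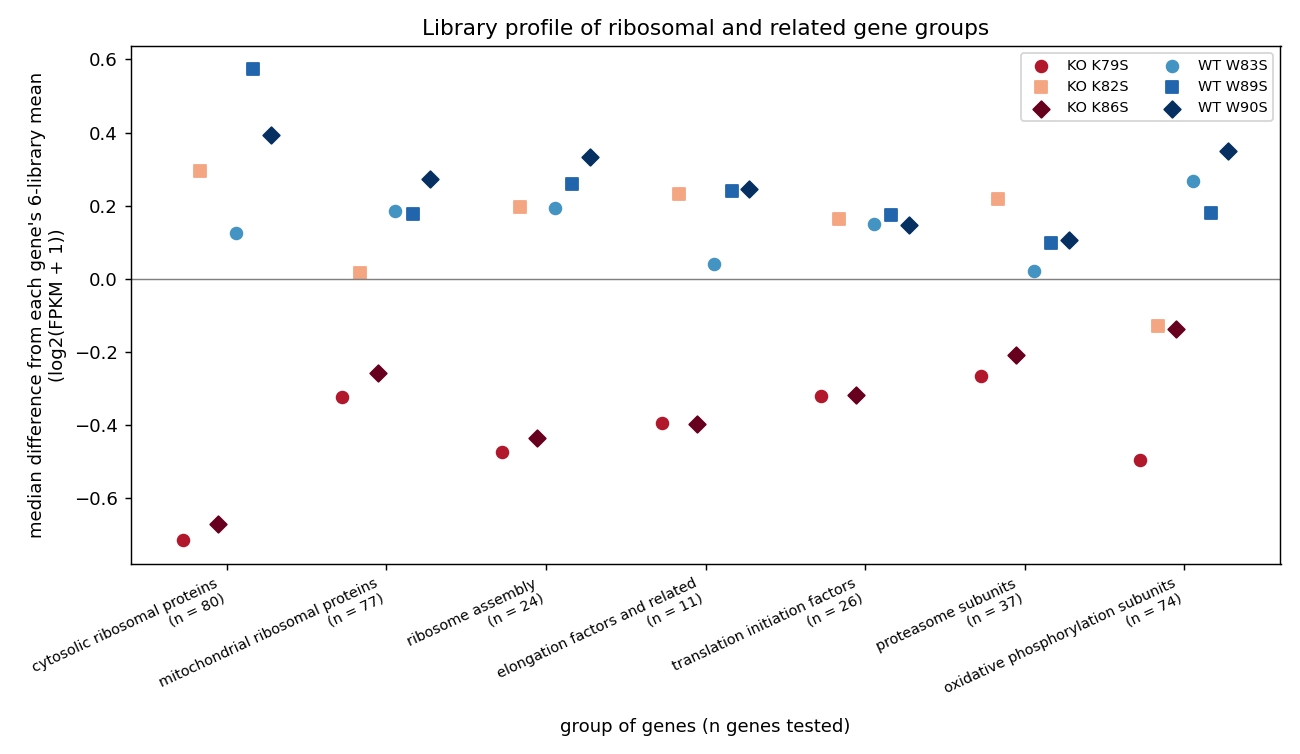
Median difference of each library from the mean of a gene over the 6 libraries, on the log2(FPKM + 1) scale, for the ribosomal protein genes and 6 other groups, with 1 point per library. The spread from K79S to W89S is widest in the cytosolic ribosomal proteins (−0.71 to 0.57), and K82S lies among the WT libraries there but beside K86S in oxidative phosphorylation (−0.13 and −0.14).

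The scale of the FPKM bears on these directions. On equal FPKM totals, 5409 of 13057 rows were below 0. With each library scaled to the same FPKM total, the median of all rows moved from −0.07 to 0.07, the cytosolic ribosomal proteins stood at −0.67 (78 of 80 below 0), the mitochondrial ones at −0.26 (70 of 77), oxidative phosphorylation at −0.32 (72 of 74), ribosome assembly at −0.42 (22 of 24), the elongation factors and related genes at −0.29 (10 of 11), the initiation factors at −0.15 (16 of 26) and the proteasome at −0.05 (20 of 37). The growth control genes turned to 0.11, with 4 of 15 below 0.

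Crypt cell markers were lowest in K79S and K86S, as were the ribosomal protein genes, but did not follow them in every library. The 5 Paneth cell markers summed to 514, 3559 and 976 FPKM in KO and to 1958, 7007 and 5283 in WT. The 7 cycling cell markers with a row, of 8, summed to 24.5, 51.8 and 29.1 in KO and to 42.6, 52.5 and 59.3 in WT. The 5 crypt stem cell markers with a row, of 7, summed to 18.2, 34.5 and 23.8 in KO and to 41.8, 69.9 and 78.1 in WT, with Lgr5 and Ascl2 not placed. In each list K79S and K86S were the 2 lowest libraries, by sum and by median deviation. The median deviation was below 0 in W83S for Paneth (−0.27) and cycling markers (−0.03). For crypt stem markers it was below 0 in K82S (−0.08) and W90S (−0.09). The members were above 0 in W83S, K82S and W90S. In the remaining libraries each list had the sign of the members. Median log2 fold changes were −2.26 (Paneth, 5 of 5 below 0), −0.85 (cycling, 7 of 7) and −0.82 (crypt stem, 4 of 5), and none of these genes was called. Without K82S 5 Paneth, 5 cycling and 1 crypt stem marker were called lower (7.56% of all rows). None of the 3 lists had a call once those libraries were scaled to the same FPKM total or by median ratios. The 10 enterocyte markers summed to 38091, 24708 and 40558 FPKM in KO and to 33632, 33584 and 37486 in WT, with K82S the lowest library, and had a median of 0.15, with 4 below 0 and none called. The part of these cells in the ribosomal protein values was not tested.

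**Figure D4:**
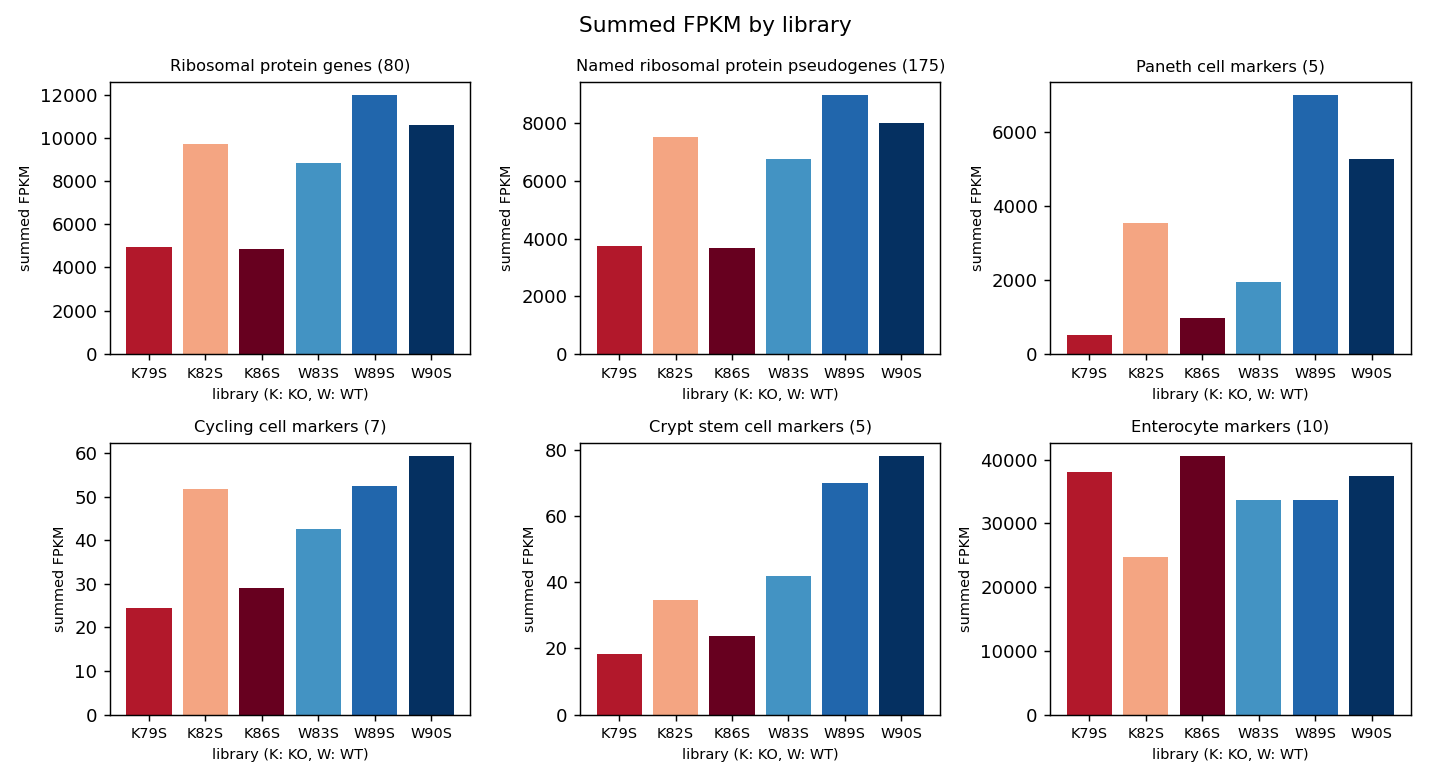
Summed FPKM in each library (linear axes from 0) for the 80 ribosomal protein genes, their 175 named pseudogenes with a row, and markers of Paneth, cycling, crypt stem and enterocyte cells. K79S and K86S are the lowest libraries in the first 5 panels, and are the highest for enterocyte markers at 38091 and 40558.

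Transcript length also moved with the comparison. Length was taken as the median over all annotated transcripts of a gene. By it the members had a median of 630 bases, against 1244 in other protein-coding genes with a row. All 80 were under 1200 bases, as were 48.6% of the others. The single transcripts used for the shared windows were longer in some members, up to 5179 bases in Rps15a. Among the other coding genes the median log2 fold change was −0.21 under 600 bases (656 genes), −0.09 from 600 to 800 (1676), −0.10 from 800 to 1200 (1732), −0.03 from 1200 to 2000 (1835) and 0.06 from 2000 bases (2471). The members stood at −0.90 under 600 (36), −0.86 from 600 to 800 (31) and −0.76 from 800 to 1200 (13). Other rows of 100 FPKM or more had a median of −0.14 (602), and members at that level −0.86 (26). The part of length in the result was not tested beyond these values.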

How the data were processed

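RNA-seq of middle small intestinal mucosa was analysed for 3 KO and 3 WT mice. The authors made 50-base single-end reads, trimmed them, mapped them to mm10 with HISAT2, assembled and quantified genes, and deposited FPKM, in which reads are divided by transcript length and by library size. Tool versions, strand handling and the treatment of reads with several matches are not given in the sources used here. The number of value columns left without a sample was 0. FPKM holds no counts: low values did not fall on clear steps of whole reads, so the counts behind a value could not be recovered, no counting interval was given and no count model was used. The study states read totals per library, which were not used here as values.

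Identifiers were ranked by the K79S value beside them and rows by W83S, and a gene was given the row of its rank, with the offsets of an earlier account of these data. Genes outside their ranges were left out. Rows with FPKM under 1 in more than 4 of 6 libraries were removed, leaving 13089 of 22700. All 80 members passed. log2(FPKM + 1) was tested with limma 3.58.1 in R 4.3.3 (mean-variance trend, Benjamini-Hochberg over all rows tested). Fold changes are on this scale, which understates those of low genes. The study compared all 6 libraries, which is an alternative here. The test was also run on simulated rows with independent noise. The members move together, so that run does not bear on their result. Tables were handled with Python 3.11.15, pandas 2.3.3 and numpy 2.4.6, exact tests with scipy 1.17.1, sequences with Biopython 1.88 and figures with matplotlib 3.10.9.

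Members and lists were chosen with earlier results of these data known. Named genes were the 6 highest and 4 lowest members by mean FPKM, the stalk genes, the listed paralogs, the 4 largest and 4 smallest log2 fold changes, Rpl11, Rpl5, Rps6, Rps19, Rpl13a and Rps18, the 2 widest and 2 narrowest ranges over libraries, and the 2 highest genes of each pathway list. Some genes that this rule names are not reported here. Each mouse gave 1 library, so p-values measure the spread between mice. Alternatives were the pseudocount, the filter, the scaling, the weights, the trend, all 6 libraries and each library left out.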

Additional observations from a re-analysis of the deposited data

How the results depend on the processing

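A total of 22 alternatives to the comparison of K79S, K82S and K86S with W89S and W90S were fitted, of which 6 were chosen after seeing the data. Leaving out each library in turn gave 0 to 62 called members and 0 to 1023 called rows. The calls of members came with K82S left out. In these fits 78 to 80 members were lower in KO, and their median log2 fold change was −1.19 to −0.67. Without K82S, 78 of 80 members and 8074 of 13089 rows were below 0. With all 6 libraries 1 row was called, as with a filter limit of 0.5 FPKM, with library weights and without W89S, and in none of these 4 fits a member. With all 6 libraries the median was −0.73, and 37 members and 1638 rows had an unadjusted p under 0.05. Without K82S, 0 members and 3 rows were called with equal FPKM totals, and 0 members and 2 rows with median ratio scaling, both chosen after seeing the data. Fits that add W83S are descriptions, since it placed the rows. With all 6 libraries but K82S, 68 members and 1154 rows were called. That fit gave 53 members and 766 rows with median ratio scaling, and 0 members and 5 rows with equal FPKM totals, also chosen after seeing the data. The cause was not tested.

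Over all 35 named members and 22 alternatives there were 770 values, of which 689 kept direction and side of the threshold, 74 crossed to a call and 7 reversed. No call could be lost, because the comparison itself called no member. For the 689, keeping the side of the threshold means that they stayed without a call. Rpl21 turned to 0.027 with equal FPKM totals, and ranged from −0.18 to 0.0039 with each library left out in turn, turning without K82S, where it was at 0.20 with equal FPKM totals and at 0.13 with median ratio scaling. Rpl29 ranged from −0.41 (without K86S) to 0.30, turned also without W90S (−0.10), and was at −0.32 with all 6 libraries but K86S. No paired analysis was possible because the study calls the tissues matched but the labels carry no pairs or replicate numbers that the groups share. FPKM without counts limits what can be said of the members under 10 FPKM, where the error of counting is unknown.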

Other observations

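The summed FPKM of T cell markers (6) was higher in all KO libraries than in all WT libraries. It was 155, 223 and 155 in KO (K79S, K82S, K86S) and 114, 72.5 and 96.4 in WT (W83S, W89S, W90S), with a median log2 fold change of 0.85 and none called, and Trac turned from 0.36 to −0.03 without K82S. Cd74, the invariant chain of MHC class II, was at 1667, 1614 and 1511 FPKM in KO and at 544, 734 and 619 in WT, with a log2 fold change of 1.24 (SE 0.24, adjusted p = 0.546), and macrophage and dendritic cell markers (4) had a median of 0.18, with 2 below 0. Of these 4, Lyz2 was at 17.5, 122 and 27.0 in KO and at 41.0, 184 and 123 in WT (−1.92), and was called lower without K82S. B cell markers (2) summed to 4.59, 61.3 and 6.53 in KO and to 5.86, 23.2 and 42.7 in WT, and K82S was the highest library. Goblet cell markers (6) had a median of 0.32, enteroendocrine markers (5) of −0.07, tuft cell markers (2) of 0.56, plasma cell markers (4) of 0.02, smooth muscle markers (2) of −0.08, fibroblast markers (2) of 0.52 and red blood cell markers (4) of −0.76. In the fit without W83S, gastric markers (3) had a median of −0.27 and the 1 pancreatic acinar marker tested −0.62. In that fit proximal small intestinal markers (4, Enpp7 among them) had 0.01 and distal ones (2) 0.14. None of these genes was called with K82S in the fit.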
